A study of Mus musculus with 7 samples.

Results

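DNA replication and S phase genes were followed as a group of 46 genes, chosen by name for their role in origin licensing, the replication fork, deoxynucleotide supply or entry into S phase, among the 55364 genes listed for 7 RNA-seq libraries of mini-oocytes. All 46 were found by symbol. All of them were among the 21780 genes tested, those that reached 1 TPM (a share of the library corrected for exon length) in 2 or more libraries. Mini-oocytes are oocyte-like cells that form in culture from mouse embryonic stem cells (mESCs, hybrid 129/C57BL6) when oocyte transcription factors are expressed from transgenes, each fused to a destabilizing domain and kept stable by Shield-1. In 4F-mini-oocytes the factors were Nobox, Figla, Tbpl2 and Lhx8, and in 8F-mini-oocytes Stat3, Dynll1, Sub1 and Sohlh1 were added. Both lines derive from the female line BVSC H18, and all groups were cultured with stem cell factor and the ROCK inhibitor Y-27632, with Shield-1 left out from day 12. The groups were 4F at day 7 (n = 2, each a pool of 1000 cells), 4F at day 21 (n = 3, pools of 10 cells) and 8F at day 21 (n = 2, pools of 10 cells). Day, number of cells per pool and Shield-1 in the fresh medium change together, and their parts cannot be told apart. No 8F library of day 7 was analysed here. The labels do not say whether replicates came from separate inductions, so p-values measure only the spread between these samples.

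In a dividing cell, the origin recognition complex marks origins in G1 and, with Cdc6 and Cdt1, loads the MCM helicase as an inactive ring. Cyclin-dependent kinases and the kinase Cdc7 with Dbf4 then recruit Cdc45 and GINS to start unwinding, while geminin and the degradation of Cdt1 stop a further round of loading. Growing mouse oocytes in the ovary are arrested in meiotic prophase with their DNA already replicated, and they are known to store mRNA and protein for the divisions after fertilization. For mini-oocytes, the paper reports that meiosis markers were not induced. DNA synthesis was not measured in these libraries, and the level of a transcript gives no rate of it.

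Reads on genes, worked back from the TPM steps, were 9506135 and 12317535 at day 7 and between 14612696 and 18027834 at day 21. The 10 most abundant genes took 28.5% and 31.8% of all TPM at day 7 and between 10.2% and 14.0% at day 21. TPM is a share of a fixed total, so this difference moves with every comparison of days, and its part in the changes was not tested. All 10 oocyte markers listed were detected in every library, with sums of 5836 to 7633 TPM at day 7, 29160 to 31740 TPM in 4F at day 21 and 24800 to 25490 TPM in 8F, led by Zp3 and Gdf9 at day 21. The 10 stem cell markers summed to 85.9 and 96.9 TPM at day 7, 243.0 to 362.4 TPM in 4F at day 21 and 137.2 to 177.6 TPM in 8F, with 3 to 5 of the 10 at 0 in a library. Of the 6 tested, Pou5f1, which oocytes also express, and Esrrb were called higher and Zfp42 lower at day 21 in 4F, while Nanog was at 0 in 6 of 7 libraries. Their part in the changes was not tested. All 8 granulosa cell markers together summed to between 4.65 and 14.7 TPM in the 7 libraries, with 1 to 5 of the 8 at 0. Markers of other differentiated cells summed to 1111 and 1587 TPM at day 7, nearly all from the keratins Krt8 and Krt18, against 70.1 to 183.3 TPM at day 21. Of the 4 of these tested, Krt8, Krt18 and Hand1 were called lower at day 21 in 4F. Gata4 was called higher. It measured 3.07 and 1.57 TPM at day 7 and 32.4, 46.3 and 42.9 TPM in 4F at day 21. In 8F it was at 95.4 and 87.8 TPM and was also called higher than in 4F at day 21. That call was lost in 9 of 19 further settings of the test. Since the libraries are bulk pools, fewer cells of a type and less RNA per cell cannot be told apart, and the part of these markers in the changes below was not tested.

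Every member was detected in every library. The lowest value was 8.53 TPM, for the licensing factor Cdc6 at day 7, and the highest was 271.9 TPM for the helicase subunit Gins4 in 4F at day 21. At least 73 reads lay behind each member in each library, so no member was near the limit of detection. The median member stood at 32.4 and 33.5 TPM in the libraries of day 7, between 57.8 and 61.8 TPM in 4F at day 21, and at 59.9 and 65.4 TPM in 8F. In ranks among the genes tested, the median member was at the 79.9th percentile in both libraries of day 7, and between the 83.9th and 85.9th at day 21. The 46 members together took 1856 and 1957 TPM at day 7, between 3438 and 3522 TPM in 4F at day 21, and 3265 and 3285 TPM in 8F, so the libraries of the 2 days did not overlap in this sum. Some members share sequence with other genes and are uncertain to that extent. A gene on the other strand covers between 10.7% and 17.4% of the exonic bases of Orc1, Rfc2, Rfc4, Rfc5, Ccne2 and Ccna2, and pseudogenes with at least 95.2% identity exist for Cdc6, Rfc5 and Rrm2, beside those named below.

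**Figure D1:**
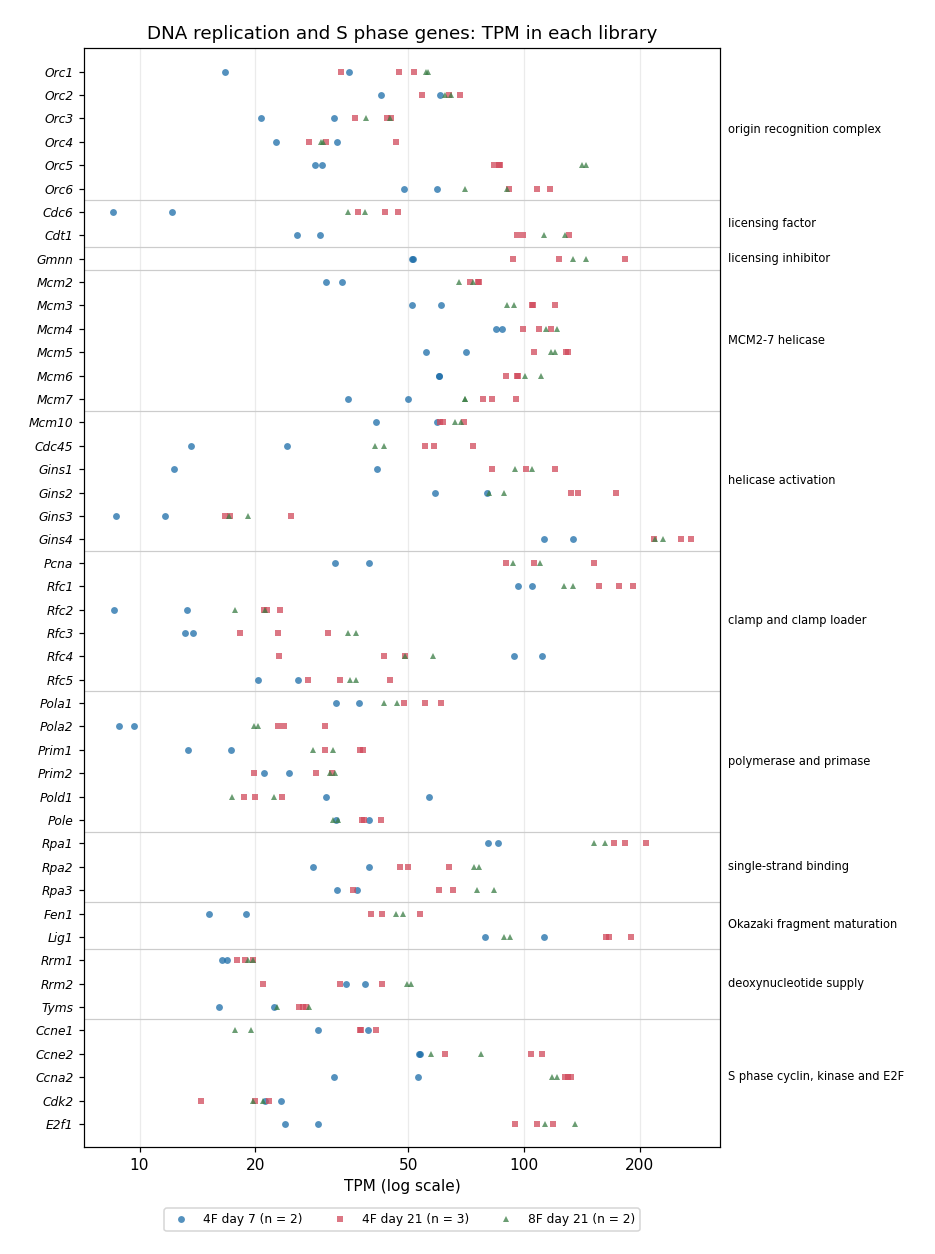
TPM of the 46 members on a log axis, 1 row a gene, grouped by role, with 1 symbol for each of the 7 libraries (circles, 4F at day 7, n = 2; squares, 4F at day 21, n = 3; triangles, 8F at day 21, n = 2). For 35 members all squares lie to the right of the circles, and for Rfc4 and Pold1 they lie to the left.

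The comparison of day 21 with day 7 in 4F asks how the replication genes stand early and late in the culture. On log2(TPM + 1), with limma and Benjamini-Hochberg adjustment over all 21780 genes, 29 members were higher at day 21, 2 were lower and 15 did not pass an adjusted p of 0.05. Among all genes tested, 40.6% were called, 25.3% higher and 15.3% lower. Among genes with at least 5 TPM in 2 libraries, which all members reached, 51.8% were called, 35.7% higher and 16.1% lower, and there 30 members were called higher and 2 lower. The median log2 fold change of the members was 0.84, against 0.17 for all genes tested and 0.36 for the genes of at least 5 TPM. In 35 members every library of day 21 was above every library of day 7, and in 2 members every library was below (33.8% and 22.9% of all genes tested).

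The count moved with the scaling between libraries, while the direction of the 31 called members did not turn in any of the 19 further settings tried. With median-of-ratios rescaling, which moved the median of all genes from 0.17 to -0.06, 22 members were higher and 2 lower. Among all 21780 genes, 4178 were then higher and 4450 lower. Quantile normalization, with that median at 0.04, gave 15 higher and 2 lower, against 4347 and 4008 of all genes. A voom fit on the reads worked back from TPM gave 15 higher and 4 lower with the median at -0.32. Of the 21728 genes in that fit, 3349 were higher and 5583 lower. The same fit with median-of-ratios library sizes gave 23 higher and 3 lower with the median at -0.13. Of all genes it called 4048 higher and 4813 lower. The 12 members that passed in every setting were Orc5, Cdc6, Cdt1, Mcm2, Cdc45, Gins1, Pcna, Pola2, Rpa1, Fen1, Ccna2 and E2f1, all higher at day 21. Rfc4 and Pold1 were the 2 members that fell.

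**Figure D2:**
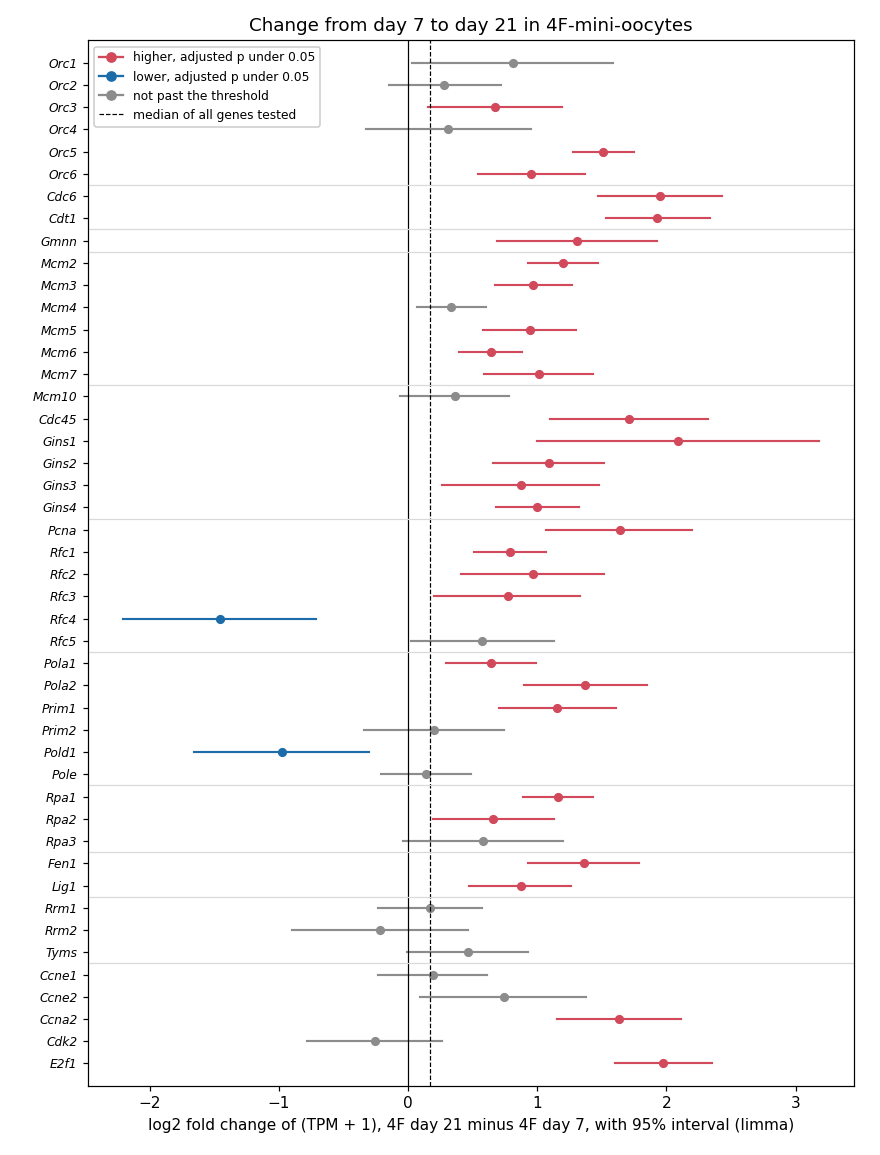
Log2 fold change of (TPM + 1) of each member from day 7 to day 21 in 4F-mini-oocytes (points) with 95% intervals from limma (lines), 1 row a gene, in red where higher and in blue where lower at an adjusted p under 0.05. The solid line marks 0 and the dashed line the median of all genes tested, 0.17, and 29 points are red and 2 blue.

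Of the 6 subunits of the origin recognition complex, the platform on which the helicase is loaded, Orc3, Orc5 and Orc6 rose and Orc1, Orc2 and Orc4 did not pass the test. Orc5 (chr5:22486485-22550429, minus strand) measured 28.6 and 29.8 TPM in 4F at day 7, 86.4, 83.5 and 86.0 TPM in 4F at day 21 and 145 and 142 TPM in 8F. The 3 groups did not overlap. From day 7 to day 21 in 4F the log2 fold change of Orc5 was 1.51 ± 0.10 (SE, limma adjusted p = 0.000116). Orc6, which the complex needs to load the helicase, measured 48.7 and 59.5 TPM in 4F at day 7, 117, 91.4 and 108 TPM in 4F at day 21 and 70.2 and 90.6 TPM in 8F. Both groups of day 21 were above day 7, and the log2 fold change in 4F was 0.95 ± 0.17 (SE, limma adjusted p = 0.00563). Orc1, the subunit that in most dividing cells is degraded after S phase, measured 35.0 and 16.7 TPM in 4F at day 7, 51.6, 33.5 and 47.2 TPM in 4F at day 21 and 55.5 and 56.2 TPM in 8F. Its libraries at day 7 lay far apart and overlapped those of 4F at day 21. Without replicate 1 of day 7 the adjusted p of Orc1 was 0.0229. Orc3 passed with a log2 fold change of 0.67 ± 0.22 (SE, limma adjusted p = 0.0479), and lost the call in 16 of the 19 further settings, among them the omission of any library but replicate 1 of day 7. For Orc2, 29.8% of the exonic bases are shared with Nif3l1 on the other strand, and no strand option of the counting is stated, so its 60.5 and 42.4 TPM in 4F at day 7, 68.3, 63.8 and 54.3 TPM in 4F at day 21 and 64.7 and 62.4 TPM in 8F may hold reads of that gene.

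The licensing factors Cdc6 and Cdt1, which bring the helicase to the origin, both rose, with larger fold changes than any subunit of the complex. Cdc6 (chr11:98907801-98923940, plus strand) measured 12.2 and 8.53 TPM in 4F at day 7, 43.4, 47.1 and 37.0 TPM in 4F at day 21 and 34.9 and 38.5 TPM in 8F. All libraries of day 21 were at least at 34.9 TPM and both of day 7 at most at 12.2 TPM. The log2 fold change in 4F was 1.95 ± 0.20 (SE, limma adjusted p = 0.000590). Cdt1 measured 29.5 and 25.7 TPM in 4F at day 7, 99.5, 96.0 and 131 TPM in 4F at day 21 and 112 and 128 TPM in 8F. The days did not overlap, and the log2 fold change of Cdt1 was 1.93 ± 0.17 (SE, limma adjusted p = 0.000315). Gmnn, which encodes geminin, the inhibitor that binds Cdt1, measured 51.3 and 51.0 TPM in 4F at day 7, 93.8, 183 and 123 TPM in 4F at day 21 and 134 and 145 TPM in 8F. The days did not overlap for Gmnn either, but the 3 libraries of 4F at day 21 were spread widely, and its log2 fold change was 1.31 ± 0.26 (SE, limma adjusted p = 0.00766). Without replicate 1 or replicate 2 of day 7 the adjusted p of Gmnn was 0.0606 or 0.0577. The ratio of Gmnn to Cdt1 in TPM was 1.74 and 1.98 at day 7, between 0.94 and 1.90 in 4F at day 21, and 1.14 and 1.19 in 8F, so the 4F groups overlapped in it.

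Of the 6 subunits of the MCM helicase, Mcm2, Mcm3, Mcm5, Mcm6 and Mcm7 rose and Mcm4 did not pass. Mcm2 measured 30.5 and 33.6 TPM in 4F at day 7, 76.4, 72.4 and 75.8 TPM in 4F at day 21 and 67.7 and 73.7 TPM in 8F. Its log2 fold change was 1.20 ± 0.11 (SE, limma adjusted p = 0.000419), and it was the subunit that passed in every setting. Mcm3 measured 60.6 and 51.2 TPM in 4F at day 7, 106, 105 and 121 TPM in 4F at day 21 and 93.9 and 90.3 TPM in 8F. Every library of day 21 was above both of day 7, with a log2 fold change of 0.97 ± 0.12 (SE, limma adjusted p = 0.00134) in 4F. Mcm5 measured 55.6 and 70.8 TPM in 4F at day 7, 129, 106 and 130.2 TPM in 4F at day 21 and 120.1 and 118 TPM in 8F. The days were again apart, with a log2 fold change of 0.94 ± 0.15 (SE, limma adjusted p = 0.00329).

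Mcm6 measured 60.2 and 60.1 TPM in 4F at day 7, 96.2, 89.8 and 96.7 TPM in 4F at day 21 and 111 and 100.5 TPM in 8F. The replicates of each group lay close together, and the log2 fold change was 0.64 ± 0.10 (SE, limma adjusted p = 0.00343), which shrank to 0.03 with quantile normalization. Mcm7 measured 49.8 and 34.8 TPM in 4F at day 7, 82.4, 78.4 and 95.2 TPM in 4F at day 21 and 70.0 and 70.0 TPM in 8F. Here too both groups of day 21 were above day 7, with a log2 fold change of 1.01 ± 0.18 (SE, limma adjusted p = 0.00462). Mcm4 was the most abundant subunit at day 7, with 87.4 and 84.4 TPM in 4F at day 7, 109, 118 and 99.1 TPM in 4F at day 21 and 122 and 114 TPM in 8F. Its libraries did not overlap between the days, yet the log2 fold change was small, 0.33 ± 0.11 (SE, limma adjusted p = 0.0526). Its sign turned under each of the 4 other scalings. Without replicate 3 of 4F at day 21 the adjusted p of Mcm4 was 0.0396.

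The 6 MCM subunits together measured 335.1 and 344.2 TPM at day 7, between 568.9 and 617.8 TPM in 4F at day 21, and 566.5 and 584.9 TPM in 8F. TPM is corrected for the length of all annotated exons of a gene, for example 6956 bases for Mcm2 and 3589 bases for Mcm4. Which transcripts of a gene were expressed was not tested, so ratios between subunits depend on this annotation. At day 7 the highest subunit was 2.51 and 2.87 times the lowest, and at day 21 between 1.62 and 1.72 times in 4F and 1.68 and 1.80 times in 8F. The subunits of the ring are needed in equal number in the protein complex. On this scale their TPM values were more equal in every library of day 21 than at day 7, with Mcm2 the lowest at day 7. With other transcript lengths the order and the ratios could differ. The pseudogene Gm5487 has a transcript 97.7% identical to Mcm7 over 2157 bases. The authors kept uniquely placed reads only, so reads that match both are missing.

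**Figure D3:**
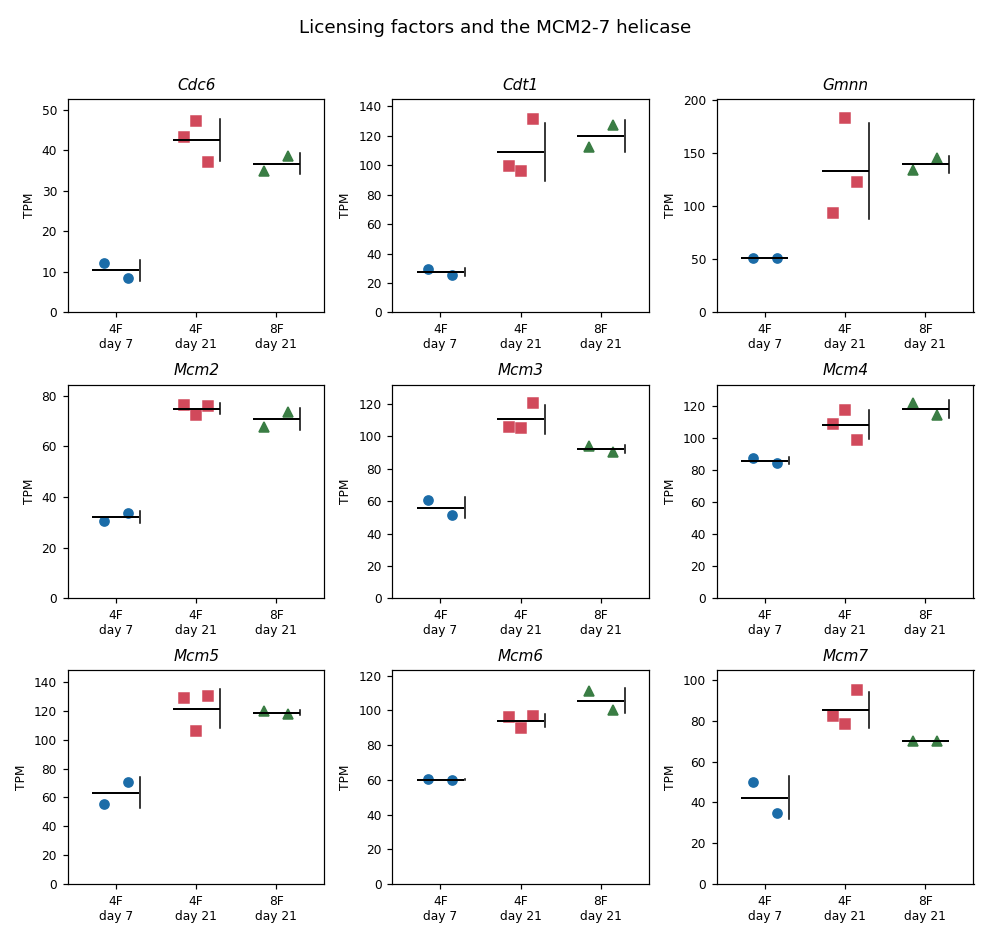
TPM of the licensing factors Cdc6 and Cdt1, the inhibitor Gmnn and the subunits Mcm2 to Mcm7 in the 7 libraries, 1 panel a gene with an axis from 0 (circles, 4F at day 7; squares, 4F at day 21; triangles, 8F at day 21). Horizontal lines are group means and vertical lines 1 SD (n = 2, 3 and 2), and in each panel the groups of day 21 lie above day 7, with the smallest ratio in Mcm4.

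Replication genes are known targets of the E2F family, so the promoters of the members were searched for 4 E2F octamers, TTTCGCGC, TTTGGCGC, TTTCCCGC and TTTGCCGC, on both strands. RefSeq promoter windows (GRCm38.p6, 250 bases before to 50 after a start) were held for 36 of the 46 members. An octamer was found for 14 of these 36 (38.9%), against 4.38% of the 12293 genes tested with an entry and 2.6% of all 27025 genes with an entry. The 14 were Orc1, Orc3, Cdc6, Cdt1, Mcm3, Mcm5, Mcm6, Mcm7, Gins3, Rfc3, Pola1, Pold1, Lig1 and Cdk2. The letters CCAAT, read by the factor NF-Y, were in the windows of 23 members (63.9%), against 43% of the genes tested. The stretches of 160 bases just upstream of the RefSeq start are shown for 4 members in which an octamer lies there and no base is annotated as an exon, with the matching letters in capitals.
Cdc6, chr11:98907991-98908150, plus strand: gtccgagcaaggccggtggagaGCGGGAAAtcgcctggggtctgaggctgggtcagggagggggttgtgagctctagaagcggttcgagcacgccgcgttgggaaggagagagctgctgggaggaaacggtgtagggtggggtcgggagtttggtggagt
Mcm5, chr8:75109349-75109508, plus strand: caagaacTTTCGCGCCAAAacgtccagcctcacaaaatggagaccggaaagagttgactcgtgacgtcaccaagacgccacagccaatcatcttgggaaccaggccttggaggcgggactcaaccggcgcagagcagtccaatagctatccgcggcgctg
Mcm6, chr1:128359706-128359865, minus strand: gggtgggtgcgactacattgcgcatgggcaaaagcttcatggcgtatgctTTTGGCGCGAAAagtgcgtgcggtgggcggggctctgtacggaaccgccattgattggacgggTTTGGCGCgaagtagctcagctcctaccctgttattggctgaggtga
Pola1, chrX:93632156-93632315, minus strand: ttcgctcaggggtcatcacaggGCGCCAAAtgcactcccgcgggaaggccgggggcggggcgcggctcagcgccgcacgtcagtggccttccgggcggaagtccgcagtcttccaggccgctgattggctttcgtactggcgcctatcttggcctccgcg
For Cdc6 the RefSeq start lies 350 bases from the start of the GENCODE gene, so its stretch is within the gene position given above. In Mcm5 and in Mcm6 a match on each strand shares letters with the other, which gives the longer runs of capitals. The members with and without an octamer are set side by side here, with no test. Of the 14 with an octamer, 11 were higher and 1 lower in 4F at day 21, with a median log2 fold change of 0.84. Of the 22 without, 12 were higher and 1 lower, with a median of 0.73, and of the 10 members with no entry 6 were higher. A match is a run of letters and no evidence of binding. E2f1 and Pcna hold none of the 4 octamers in this window, but their RefSeq starts lie 466 and 134 bases from the GENCODE starts. Of the 160 bases before the RefSeq start, 160 in E2f1 and 134 in Pcna are annotated as exon. Sequence further upstream was not searched, so a member without a match in the window may hold an octamer outside it.

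Of the 6 factors that turn the loaded ring into a working helicase, Cdc45, Gins1, Gins2, Gins3 and Gins4 rose and Mcm10 did not pass. Cdc45, the helicase cofactor, measured 24.2 and 13.6 TPM in 4F at day 7, 58.3, 55.3 and 73.8 TPM in 4F at day 21 and 40.9 and 43.1 TPM in 8F. Its log2 fold change was 1.71 ± 0.25 (SE, limma adjusted p = 0.00246), with no overlap between the days. Gins1 measured 12.3 and 41.4 TPM in 4F at day 7, 101, 82.6 and 120.3 TPM in 4F at day 21 and 95.0 and 105 TPM in 8F. The days did not overlap here either, and the log2 fold change was 2.09 ± 0.46 (SE, limma adjusted p = 0.0111). Both genes passed in every setting. Replicate 1 was the higher library of day 7 for Cdc45 and the lower for Gins1.

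Gins4 was the most abundant member in every library, at 113 and 134 TPM in 4F at day 7, 256, 218 and 272 TPM in 4F at day 21 and 230.0 and 219.6 TPM in 8F. The days lay well apart, with a log2 fold change of 1.00 ± 0.13 (SE, limma adjusted p = 0.00157). Gins2 measured 58.6 and 80.2 TPM in 4F at day 7, 132, 138 and 173 TPM in 4F at day 21 and 81.2 and 88.5 TPM in 8F. The log2 fold change between the days in 4F was 1.09 ± 0.18 (SE, limma adjusted p = 0.00372), and 8F lay between the other groups. For Gins2, 67.3% of its exonic bases lie within Gse1 on the other strand, so its values are uncertain. Gins3 was the lowest of the 4 subunits in every library, with 11.7 and 8.70 TPM in 4F at day 7, 17.2, 24.8 and 16.7 TPM in 4F at day 21 and 19.1 and 17.1 TPM in 8F. It passed with a log2 fold change of 0.87 ± 0.26 (SE, limma adjusted p = 0.0342) and lost the call in 12 of the 19 further settings, among them the omission of any library but replicate 3 of 4F at day 21. Mcm10, which bridges the helicase and polymerase alpha, measured 59.3 and 41.3 TPM in 4F at day 7, 70.0, 60.4 and 61.4 TPM in 4F at day 21 and 66.1 and 68.8 TPM in 8F. Its lowest library of day 21 was just above its highest of day 7, and without replicate 1 of day 7 its adjusted p was 0.0216. The 4 subunits of GINS together measured 195.1 and 264.7 TPM at day 7, between 463.8 and 582.0 TPM in 4F at day 21, and 425.2 and 430.0 TPM in 8F.

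Pcna, the sliding clamp that holds the polymerases on DNA, measured 39.5 and 32.2 TPM in 4F at day 7, 106, 152 and 89.7 TPM in 4F at day 21 and 110.1 and 93.6 TPM in 8F. Every library of day 21 was above 89 TPM and both of day 7 were below 40 TPM, with a log2 fold change of 1.64 ± 0.23 (SE, limma adjusted p = 0.00212). A pseudogene, Pcna-ps2, is 99.2% identical over 781 bases, and since the authors kept uniquely placed reads only, reads that match both are missing from either. The 5 subunits of replication factor C, which loads the clamp, did not move together. Rfc1, the large subunit, rose from 105 and 96.4 TPM to 192, 157 and 177 TPM in 4F, a log2 fold change of 0.79 ± 0.12 (SE, limma adjusted p = 0.00246). Rfc2 and Rfc3, both small subunits, rose by 0.97 and 0.77 on the log2 scale (limma adjusted p = 0.0163 and 0.0408). Rfc3 lost its call in 15 of the 19 further settings, among them the omission of any library but replicate 1 of 4F at day 21. Rfc5 measured 25.8 and 20.3 TPM in 4F at day 7, 33.3, 27.4 and 44.9 TPM in 4F at day 21 and 36.6 and 35.4 TPM in 8F and did not pass, although without replicate 2 of 4F at day 21 its adjusted p was 0.0445.

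Rfc4 (chr16:23113943-23127737, minus strand), a small subunit of the same complex, went the other way, with 111 and 94.4 TPM in 4F at day 7, 43.2, 48.9 and 23.1 TPM in 4F at day 21 and 58.0 and 49.1 TPM in 8F. No library of day 21 reached the level of day 7. Its log2 fold change in 4F was -1.46 ± 0.31 (SE, limma adjusted p = 0.0104). Without replicate 1 or replicate 2 of day 7 the adjusted p was 0.0882 or 0.0555, with the same sign in all settings. The ratio of Rfc4 to Rfc1 in TPM was 0.98 and 1.06 at day 7, between 0.13 and 0.31 in 4F at day 21, and 0.37 and 0.46 in 8F. Of the exonic bases of Rfc4, 12.7% are shared with Eif4a2 on the other strand.

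Polymerase alpha with primase lays down the RNA-DNA primers, and its subunits Pola1, Pola2 and Prim1 rose while Prim2 did not pass. Pola2 measured 9.65 and 8.87 TPM in 4F at day 7, 23.8, 23.0 and 30.4 TPM in 4F at day 21 and 20.3 and 19.8 TPM in 8F. No library of day 7 reached those of day 21, and the log2 fold change in 4F was 1.37 ± 0.20 (SE, limma adjusted p = 0.00221). Prim1, the catalytic primase subunit, measured 17.3 and 13.4 TPM in 4F at day 7, 37.5, 38.0 and 30.3 TPM in 4F at day 21 and 31.8 and 28.3 TPM in 8F. The days did not overlap, with a log2 fold change of 1.15 ± 0.19 (SE, limma adjusted p = 0.00366). Pola1, the catalytic subunit, went from 37.3 and 32.4 TPM to 61.0, 55.1 and 48.8 TPM in 4F, a log2 fold change of 0.64 ± 0.15 (SE, limma adjusted p = 0.0136). Without replicate 2 of day 7 its adjusted p was 0.0567. Prim2 overlapped between the days, with 21.1 and 24.4 TPM at day 7 and 31.6, 28.7 and 19.9 TPM in 4F at day 21.

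The catalytic subunits of the other replicative polymerases did not follow. Pold1 (chr7:44532746-44548849, minus strand), the catalytic subunit of polymerase delta on the lagging strand, measured 56.5 and 30.6 TPM in 4F at day 7, 23.5, 19.9 and 18.6 TPM in 4F at day 21 and 17.4 and 22.4 TPM in 8F. It fell, with a log2 fold change of -0.98 ± 0.29 (SE, limma adjusted p = 0.0331), and lost the call in 11 of the 19 further settings, among them the omission of any library but replicate 2 of day 7. Its 2 libraries at day 7 stood far apart, and without replicate 1 of day 7 the log2 fold change was -0.55. Pole, the catalytic subunit of polymerase epsilon on the leading strand, measured 39.5 and 32.4 TPM in 4F at day 7, 42.5, 37.8 and 38.3 TPM in 4F at day 21 and 32.8 and 31.8 TPM in 8F, overlapped between the days and did not pass. It was called lower in the voom fit alone (log2 fold change -0.38, limma voom adjusted p = 0.033).

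Replication protein A coats single-stranded DNA at the fork. Rpa1, its large subunit, measured 80.4 and 85.8 TPM in 4F at day 7, 207, 183 and 172 TPM in 4F at day 21 and 152 and 162 TPM in 8F. The days lay far apart, with a log2 fold change of 1.16 ± 0.11 (SE, limma adjusted p = 0.000484). Rpa2, the middle subunit, rose from 39.5 and 28.2 TPM to 47.6, 49.8 and 64.0 TPM in 4F, a log2 fold change of 0.66 ± 0.20 (SE, limma adjusted p = 0.0351). This call was lost in 14 of the 19 further settings, among them the omission of any library but replicate 1 of day 7 and replicate 1 of 4F at day 21. Rpa3, the smallest subunit, measured 32.5 and 36.8 TPM in 4F at day 7, 36.0, 60.2 and 65.5 TPM in 4F at day 21 and 83.7 and 75.4 TPM in 8F and overlapped between the days in 4F, and without replicate 1 of 4F at day 21 its adjusted p was 0.00840.

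The nuclease Fen1 and the ligase Lig1, which trim and join Okazaki fragments, both rose. Fen1 measured 15.2 and 18.9 TPM in 4F at day 7, 42.6, 40.1 and 53.6 TPM in 4F at day 21 and 46.4 and 48.6 TPM in 8F. Both groups of day 21 were far above day 7, with a log2 fold change of 1.36 ± 0.18 (SE, limma adjusted p = 0.00156) in 4F. The antisense gene Gm10143 covers 78.8% of its exonic bases, so reads of the 2 strands cannot be told apart. Lig1 (chr7:13277283-13311433, plus strand) measured 112 and 79.2 TPM in 4F at day 7, 163, 190.3 and 167 TPM in 4F at day 21 and 88.5 and 91.9 TPM in 8F. In 4F its log2 fold change was 0.87 ± 0.16 (SE, limma adjusted p = 0.00653). Its libraries of 4F at day 21 were above all others, including those of 8F.

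Of the 3 enzymes of deoxynucleotide supply in the group, none passed between the days, by limma at an adjusted or an unadjusted p of 0.05 or in the voom fit. Rrm1, the large subunit of ribonucleotide reductase, measured 16.3 and 16.9 TPM in 4F at day 7, 17.9, 19.8 and 18.8 TPM in 4F at day 21 and 19.7 and 19.1 TPM in 8F. Its log2 fold change in 4F was 0.17 ± 0.17 (SE, limma adjusted p = 0.458), with a 95% interval from -0.23 to 0.57. Rrm2, the small subunit that in dividing cells peaks in S phase, measured 34.4 and 38.5 TPM in 4F at day 7, 42.8, 33.3 and 20.9 TPM in 4F at day 21 and 49.6 and 50.8 TPM in 8F. The 3 libraries of 4F at day 21 ran from below to above those of day 7, and the log2 fold change was -0.22 ± 0.28 (SE, limma adjusted p = 0.568), with an interval from -0.90 to 0.46. Tyms, which makes thymidylate, measured 22.4 and 16.1 TPM in 4F at day 7, 27.0, 26.6 and 25.9 TPM in 4F at day 21 and 27.7 and 22.8 TPM in 8F. All libraries of 4F at day 21 were above day 7, but the log2 fold change was 0.46 ± 0.19 (SE, limma adjusted p = 0.106), with an interval from -0.01 to 0.93. Without replicate 1 of day 7 the adjusted p of Tyms was 0.0365. Set against the helicase, Rrm1 stood at 0.28 and 0.30 of the mean MCM subunit at day 7, between 0.18 and 0.21 in 4F at day 21, and at 0.20 in both libraries of 8F. The size of this ratio depends on the annotated exon length of Rrm1, 11012 bases.

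Among the S phase regulators of the group, Ccna2 and E2f1 rose and Ccne1, Ccne2 and Cdk2 did not pass. E2f1, the transcription factor that drives many replication genes, measured 23.9 and 29.1 TPM in 4F at day 7, 108, 94.5 and 119 TPM in 4F at day 21 and 113 and 136 TPM in 8F. Both groups of day 21 were above 94 TPM and day 7 was below 30 TPM, with a log2 fold change of 1.97 ± 0.16 (SE, limma adjusted p = 0.000232) in 4F. Ccna2, the cyclin of S phase and G2, measured 32.1 and 53.1 TPM in 4F at day 7, 129.9, 128 and 133 TPM in 4F at day 21 and 118 and 122 TPM in 8F. The days did not overlap, with a log2 fold change of 1.63 ± 0.20 (SE, limma adjusted p = 0.00115). Ccne1, a cyclin of the G1 to S transition, measured 29.1 and 39.4 TPM in 4F at day 7, 41.2, 37.6 and 37.5 TPM in 4F at day 21 and 17.7 and 19.5 TPM in 8F. Its 4F groups overlapped, with a log2 fold change of 0.19 ± 0.17 (SE, limma adjusted p = 0.430), while 8F lay below both.

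Ccne2, the other cyclin E, measured 53.4 and 53.6 TPM in 4F at day 7, 111, 104 and 62.2 TPM in 4F at day 21 and 77.1 and 57.4 TPM in 8F. All libraries of day 21 were above day 7, but replicate 3 of 4F stood apart from the other 2. The log2 fold change was 0.74 ± 0.27 (SE, limma adjusted p = 0.0702), with an adjusted p of 0.00892 without that library. Cdk2, the kinase partner of the E and A cyclins, measured 23.3 and 21.2 TPM in 4F at day 7, 14.4, 19.9 and 21.7 TPM in 4F at day 21 and 19.8 and 21.0 TPM in 8F. Its 4F groups overlapped, and both libraries of 8F were below day 7. The log2 fold change in 4F was -0.26 ± 0.22 (SE, limma adjusted p = 0.387), and it was called lower in both voom fits. The ratio of Ccna2 to Ccne1 in TPM was 1.10 and 1.35 at day 7, between 3.15 and 3.54 in 4F at day 21, and 6.22 and 6.69 in 8F, so the 3 groups did not overlap in it.

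**Figure D4:**
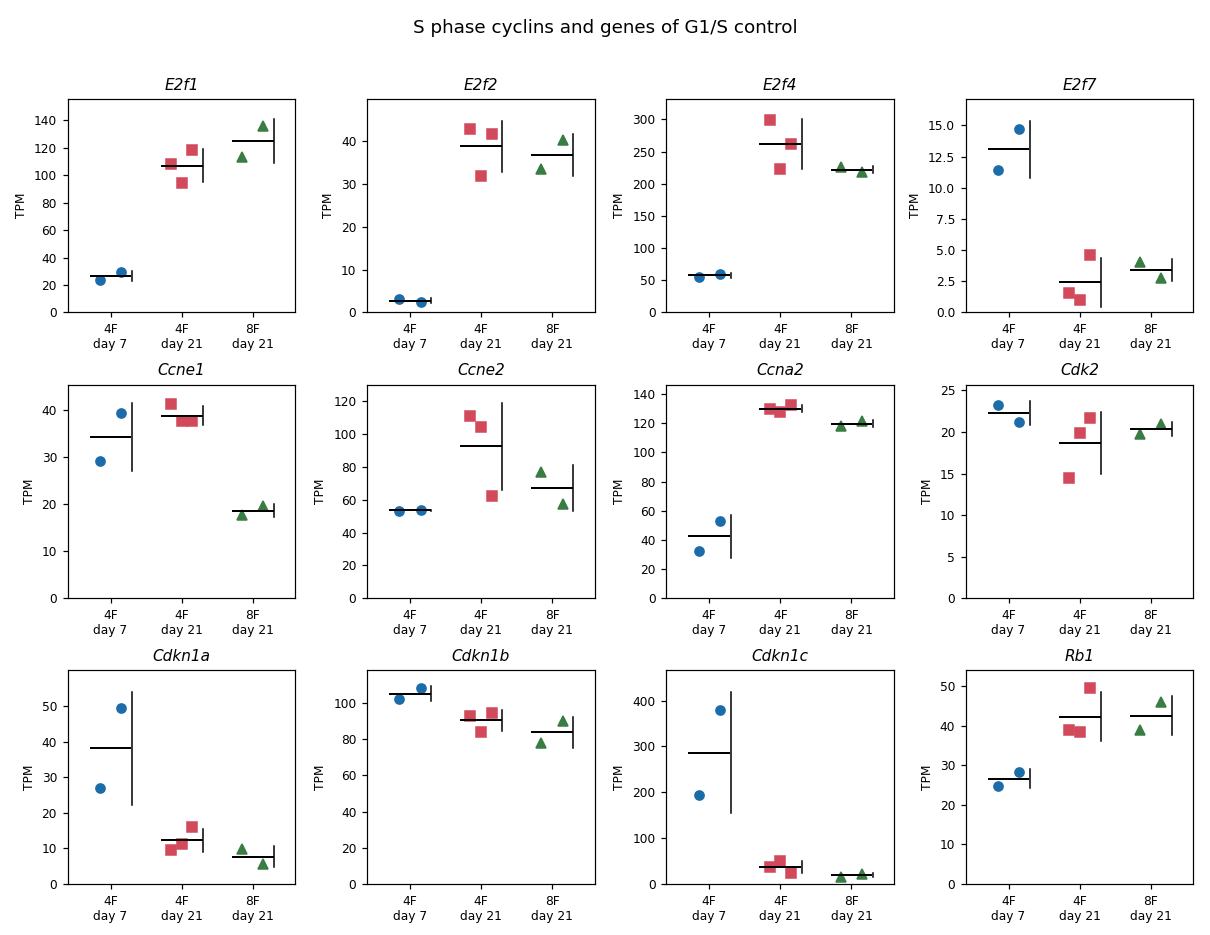
TPM of the S phase regulators E2f1, Ccne1, Ccne2, Ccna2 and Cdk2, which are members, and of E2f2, E2f4, E2f7, Cdkn1a, Cdkn1b, Cdkn1c and Rb1 from the list of G1/S control, in the 7 libraries, 1 panel a gene with an axis from 0 (circles, 4F at day 7; squares, 4F at day 21; triangles, 8F at day 21). Horizontal lines are group means and vertical lines 1 SD (n = 2, 3 and 2), with E2f1, E2f2, E2f4 and Ccna2 higher and E2f7, Cdkn1a and Cdkn1c lower at day 21.

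Genes of the same pathway outside the group were counted from 3 further lists. From day 7 to day 21 in 4F, 25.3% of all genes tested were called higher and 15.3% lower. Of 27 other genes of the replisome and of origin firing, 18 were higher at day 21 in 4F and 9 did not pass, and the voom fit called 8 higher. Ticrr, which brings the cyclin-dependent kinase signal to the helicase, went from 30.0 and 21.3 TPM to 154, 152 and 142 TPM, a log2 fold change of 2.52 ± 0.16 (SE, limma adjusted p = 0.000107). Pole3, a histone-fold subunit of polymerase epsilon, went from 66.1 and 64.4 TPM to 329.7, 359 and 351 TPM, a log2 fold change of 2.39 ± 0.088 (SE, limma adjusted p = 3.79e-05). Of the kinase that fires origins, the regulatory subunit Dbf4 had a log2 fold change of 0.83 ± 0.12 (SE, limma adjusted p = 0.00230), and the catalytic subunit Cdc7 measured 31.4 and 25.6 TPM in 4F at day 7, 39.7, 26.7 and 27.8 TPM in 4F at day 21 and 30.9 and 32.5 TPM in 8F and did not pass. Of 9 other genes of nucleotide supply, 4 were higher, 1 was lower and 4 did not pass. Dut, which removes dUTP, rose by 1.51 on the log2 scale (limma adjusted p = 0.000348), and Cad, which starts pyrimidine synthesis, fell by 1.05 on the log2 scale (limma adjusted p = 0.0193).

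Of 33 genes of G1/S control, 32 were tested, with 11 higher, 4 lower and 17 not past the threshold. Among all genes tested 25.3% were higher and 15.3% lower, and among those of at least 5 TPM 35.7% and 16.1%. The list holds genes on both sides of 5 TPM, so its counts are not read as a result about the list. The voom fit, which models reads with another scaling, called 4 higher and 10 lower, against 3349 and 5583 of all 21728 genes. E2f2, an activating E2F, went from 3.13 and 2.35 TPM to 42.8, 31.9 and 41.6 TPM, a log2 fold change of 3.41 ± 0.22 (SE, limma adjusted p = 0.000120). E2f4, an E2F that acts mostly as a repressor, went from 55.2 and 60.0 TPM to 299.8, 222 and 262 TPM, a log2 fold change of 2.15 ± 0.14 (SE, limma adjusted p = 0.000120). E2f7, an E2F that represses replication genes, went from 11.5 and 14.7 TPM to 1.59, 0.971 and 4.64 TPM, a log2 fold change of -2.19 ± 0.53 (SE, limma adjusted p = 0.0166). Of the kinase inhibitors, Cdkn1c and Cdkn1a were called lower at day 21 in 4F, and Cdkn1b lay lower without a call.

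Cdkn1c, which encodes p57, measured 194 and 379.5 TPM in 4F at day 7, 37.3, 49.2 and 23.6 TPM in 4F at day 21 and 15.9 and 22.6 TPM in 8F. Both libraries of day 7 were above all others, with a log2 fold change of -2.91 ± 0.39 (SE, limma adjusted p = 0.00166). Cdkn1a, which encodes p21, measured 26.9 and 49.3 TPM in 4F at day 7, 9.52, 11.3 and 15.9 TPM in 4F at day 21 and 9.71 and 5.55 TPM in 8F. It was lower at day 21 in 4F, with a log2 fold change of -1.53 ± 0.38 (SE, limma adjusted p = 0.0181). Cdkn1b, which encodes p27, measured 102 and 108 TPM in 4F at day 7 and 92.7, 83.8 and 94.5 TPM in 4F at day 21. In 8F it was at 77.7 and 89.8 TPM. It did not pass in 4F, although every library of day 21 was below both of day 7. Its sign turned in none of the 19 further settings, and it was called lower in 4. The D cyclins, which start the G1 to S transition in most dividing cells, were low in every library, with 0.89 to 3.68 TPM for Ccnd1, 0 to 1.60 TPM for Ccnd2 and 6.77 to 12.7 TPM for Ccnd3.

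Transcripts that mark dividing cells rose with the replication genes. Of 12 proliferation markers, 11 were higher at day 21 in 4F and 1 was lower (25.3% and 15.3% of all genes tested). The voom fit called 6 of them higher and 1 lower. Mki67, which coats mitotic chromosomes, measured 82.0 and 106 TPM in 4F at day 7, 251, 212 and 270.0 TPM in 4F at day 21 and 163 and 150.5 TPM in 8F. The days did not overlap, with a log2 fold change of 1.38 ± 0.15 (SE, limma adjusted p = 0.000820). Cdk1 and Ccnb1, the kinase and cyclin of mitosis and of meiotic resumption, rose by 1.03 and 0.83 on the log2 scale (limma adjusted p = 0.00450 and 0.00796). Aurkb and Birc5, partners in the chromosomal passenger complex, went from 5.45 and 5.72 TPM and 58.1 and 86.4 TPM to 34.0, 42.9 and 35.8 TPM and 402, 393 and 395 TPM, log2 fold changes of 2.54 and 2.47 (limma adjusted p = 0.000158 and 0.000130). Pclaf, which encodes a partner of the PCNA clamp, was the 1 that was lower, at 3.34 and 1.71 TPM at day 7 and 0.266, 0 and 0.595 TPM at day 21, and it was chosen after its values were seen.

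The comparison of 8F with 4F at day 21 asks whether the 4 added factors go with other levels of these genes. Day and number of cells per pool are the same. The factor sets are carried by separate mESC lines, that of 8F with an Npm2-mCherry reporter, so factor set and line cannot be told apart. By limma 1 member was higher in 8F, 3 were lower and 42 did not pass. Of all genes tested, 8.37% were called, 3.95% higher and 4.41% lower, so the members' share was near the background. The median log2 fold change of the members was -0.07, against 0.06 for all genes tested. In 8 members both libraries of 8F were above all 3 of 4F, and in 13 both were below (24.1% and 19.8% of all genes tested). With a library of day 21 left out, fewer members and fewer of all genes were called. Without replicate 1, 2 or 3 of 4F at day 21, limma called Orc5 and no other member. Of all 21780 genes it then called 943, 924 and 1021, against 1822 with all libraries. Without replicate 1 or replicate 2 of 8F, which leaves 1 library in that group, the median of the members was -0.07 or -0.02. That of all genes tested was 0.05 or 0.04. The voom fit on all libraries called 2 members higher and 3 lower, against 1423 and 842 of all 21728 genes in that fit.

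Orc5, at 86.4, 83.5 and 86.0 TPM in 4F and 145 and 142 TPM in 8F, was the member that was higher, with a log2 fold change of 0.74 ± 0.10 (SE, limma adjusted p = 0.0106). Its adjusted p was 0.0772 and 0.0641 without replicate 1 and replicate 2 of 8F. Ccne1 (chr7:38097984-38107534, minus strand) had the lowest fold change, at 41.2, 37.6 and 37.5 TPM in 4F and 17.7 and 19.5 TPM in 8F, or -1.02 ± 0.17 (SE, limma adjusted p = 0.0211) on the log2 scale. Its adjusted p without each of the 5 libraries of day 21 was between 0.0544 and 0.175. The other cyclins of S phase did not pass, with 111, 104 and 62.2 TPM against 77.1 and 57.4 TPM for Ccne2 and 129.9, 128 and 133 TPM against 118 and 122 TPM for Ccna2.

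Lig1 measured 163, 190.3 and 167 TPM in 4F and 88.5 and 91.9 TPM in 8F, a log2 fold change of -0.93 ± 0.16 (SE, limma adjusted p = 0.0230). Its adjusted p was 0.212 and 0.168 without replicate 1 and replicate 2 of 8F. In 8F it lay within the range of the libraries of day 7, 112 and 79.2 TPM. Gins2 (chr8:120578633-120589304, minus strand) measured 132, 138 and 173 TPM in 4F and 81.2 and 88.5 TPM in 8F, a log2 fold change of -0.79 ± 0.18 (SE, limma adjusted p = 0.0468). The call lay next to the threshold and was lost in 11 of the 19 further settings. The other subunits of GINS and Fen1, the partner of Lig1 in joining fragments, did not pass.

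For the licensing genes the interval of the difference can be given in place of a call. The 95% intervals of Mcm2 to Mcm7 of the log2 fold change ran from -0.70 at the lowest to 0.41 at the highest, and those of Cdc6, Cdt1 and Gmnn from -0.68 to 0.74, all within 1 log2 unit of 0. Over the 42 members that did not pass, 34 had an interval within 1 log2 unit of 0. For the other 8 the interval reached that size. Rrm2 was the largest of the differences that did not pass, with both libraries of 8F (49.6 and 50.8 TPM) above those of 4F (42.8, 33.3 and 20.9 TPM) and a 95% interval of the log2 fold change from close to 0 up to 1.35.

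**Figure D5:**
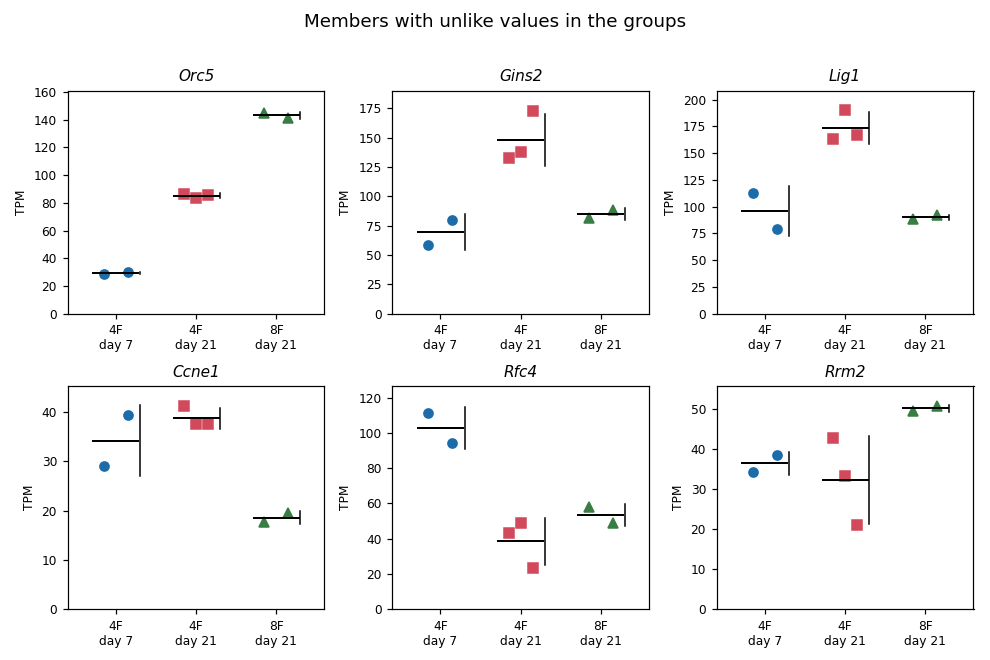
TPM of Orc5, Gins2, Lig1 and Ccne1, the members called between 8F and 4F at day 21, and of Rfc4 and Rrm2, in the 7 libraries, 1 panel a gene with an axis from 0 (circles, 4F at day 7; squares, 4F at day 21; triangles, 8F at day 21). Horizontal lines are group means and vertical lines 1 SD (n = 2, 3 and 2), with 8F above 4F at day 21 in Orc5 and below it in Gins2, Lig1 and Ccne1.

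Outside the group, 2 of the 27 other replisome genes passed, both lower in 8F. Pole3 was at 329.7, 359 and 351 TPM in 4F and 228 and 228 TPM in 8F (log2 fold change -0.60 ± 0.088, limma adjusted p = 0.0140), and Mcm8, a relative of the helicase with a role in recombination, at 52.9, 52.2 and 55.9 TPM and 27.3 and 36.1 TPM (-0.75 ± 0.17, limma adjusted p = 0.0445). Pole3 lost the call in 4 of the 19 further settings and Mcm8 in 10. By limma none of the 32 genes of G1/S control and none of the 9 of nucleotide supply passed. At an unadjusted limma p under 0.05 there were 5 and 2, and the voom fit called 3 and 1. Of the 12 proliferation markers, Birc5 and Ccnb1 were higher in 8F by 1.18 and 1.12 on the log2 scale (limma adjusted p = 0.0126 and 0.0141). Top2a, the topoisomerase that untangles replicated DNA, was lower by a log2 fold change of -0.63 (limma adjusted p = 0.0434). The calls of Birc5, Ccnb1 and Top2a were lost in 3, 4 and 9 of the 19 further settings.

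The last comparison sets 8F at day 21 against 4F at day 7, and shares its libraries with the other 2 comparisons, so its values are given beside theirs and are no further evidence. It changes day, Shield-1 in the fresh medium, factor set, cell line and number of cells at once. By limma 25 members were higher in 8F at day 21, 2 were lower and 19 did not pass. Of all genes tested, 37.2% were called, 24.2% higher and 13% lower. The members had a median log2 fold change of 0.76, against 0.24 for all genes tested. Without replicate 1 or replicate 2 of 8F, which leaves 1 library in that group, the median of the members was 0.72 or 0.82. That of all genes tested was 0.23 in both. With median-of-ratios rescaling 19 members were higher and 4 lower, with quantile normalization 13 and 5, and with the voom fit 17 and 4. Among all genes the counts were 4099 and 3883, 4148 and 3974 (of 21780), and 3896 and 4311 (of 21728). In 39 members both libraries of 8F were above both of day 7, and in 4 both were below (43.9% and 28.4% of all genes tested).

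All 6 MCM subunits were called higher there, with log2 fold changes between 0.46 for Mcm4 and 1.12 for Mcm2. Mcm4 turned to -0.10 with quantile normalization. Without replicate 1 of 8F the calls of Mcm3, Mcm4, Mcm5 and Mcm7 were lost (limma adjusted p from 0.0543 to 0.124), and without replicate 2 of 8F those of Mcm4, Mcm5 and Mcm7 (from 0.0512 to 0.126). Without replicate 2 of day 7 Mcm4 and Mcm7 lost theirs, and without replicate 1 of day 7 Mcm4 did. E2f1, Cdt1 and Cdc6 had log2 fold changes of 2.19, 2.08 and 1.75, beside 1.97, 1.93 and 1.95 in 4F. Orc5 had the highest log2 fold change of the members, 2.26 ± 0.11 (SE, limma adjusted p = 0.000104). Orc1, with 55.5 and 56.2 TPM in 8F, was called higher with a log2 fold change of 1.17 ± 0.36 (SE, limma adjusted p = 0.0418). Its call was lost without either library of 8F, without replicate 2 of day 7 and without replicate 1 or 3 of 4F at day 21. The 3 subunits of replication protein A were all called higher, with log2 fold changes of 0.91, 1.15 and 1.18 for Rpa1, Rpa2 and Rpa3. Rpa2 lost the call without either library of 8F, with adjusted p of 0.0566 and 0.0621. Rpa3 lost it without either library of 8F or of day 7, with adjusted p from 0.0691 to 0.127.

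Ccne1 and Pold1 were the 2 members called lower than at day 7. Ccne1 was at 17.7 and 19.5 TPM against 29.1 and 39.4 TPM, a log2 fold change of -0.83 ± 0.19 (SE, limma adjusted p = 0.0155), and its call was lost without either library of 8F. Pold1 was at 17.4 and 22.4 TPM against 56.5 and 30.6 TPM, a log2 fold change of -1.04 ± 0.31 (SE, limma adjusted p = 0.0400), and its call was lost without any library but replicate 2 of day 7. Rfc4 was at 58.0 and 49.1 TPM against 111 and 94.4 TPM and did not pass (limma adjusted p = 0.0751), although both libraries of 8F were below both of day 7. Without replicate 3 of 4F at day 21, which enters through the shared spread, its adjusted p was 0.00968, and it was also called lower under each of the 4 other scalings. Rrm1, Rrm2 and Tyms did not pass in this comparison either.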

How the data were processed

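RNA of pooled mini-oocytes was sequenced with a stranded SMART-seq kit. According to the methods, the authors used Trim Galore for trimming, HISAT2 for alignment (mm10), bedtools to discard ribosomal RNA and featureCounts to count unique reads per gene, with a read in overlapping genes split into fractions. They deposited TPM values, a length-corrected share of each library. No strand option of the counting is given in the sources used here, nor which library was run on which sequencer. Overlapping genes and near-identical copies, found with GENCODE vM21 exons on mm10 as shared exonic bases and matching transcripts, were therefore named as uncertain.

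The members and the gene lists were chosen with earlier results of these data known. TPM values were tested as log2(TPM + 1) with limma 3.58.1 (R 4.3.3, eBayes with trend, two-sided, Benjamini-Hochberg adjustment, threshold 0.05) on all 7 libraries in 3 groups, over the 21780 genes that reached 1 TPM in 2 or more libraries, since a count test could not be the main test on TPM. The test was also run on simulated data in which few genes changed, so that run does not cover changes as wide as those between the days. Reads were worked back from the TPM steps and exon lengths. Of low values, 78.4% to 82.9% were whole reads within 0.01 of a read. Whole sixths of a read, within a narrower limit, were 99.0% to 99.6%, so the voom fits rest on fractional reads. Of 55364 gene IDs, 55104 matched the annotation without the version number. Percentages in brackets after a count of members are the share of all genes tested. Gene positions are those of mm10. All members were named, with those central to licensing, nucleotide supply and S phase entry and the called members of largest fold change given by library. Of each further list the 2 called genes of largest fold change in each direction with a mean of at least 10 TPM were eligible, beside Cdc7, Dbf4, the kinase inhibitors, the D cyclins, Mki67, Cdk1, Ccnb1 and a few markers. A gene of the further lists is not reported here. Samples with the same replicate number did not deviate together (correlations from -0.0369 to 0.0111), so replicates were not paired. Further settings were other pseudocounts, filters and scalings, a fit without the trend, array weights, the replicate number as a block, a fit on the groups compared alone, each library left out in turn and, chosen after seeing the data, the voom fits.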

Additional observations from a re-analysis of the deposited data

How the results depend on the processing

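Against 31 called members from day 7 to day 21 in 4F, quantile normalization called 17 and voom 19. Without a library of day 21 the count was between 26 and 29. Of all genes tested, 8847 were called, 8355 with quantile, 8932 with voom and between 7040 and 8320 without a library of day 21. For 8F against 4F at day 21 the count was 4, against 1822 of all genes tested. It was 0 without the trend (4 members at an unadjusted limma p under 0.05), where 994 of all genes were called. It was also 0 with the replicate block (9 members at that unadjusted p), where 164 of all genes were called. Without a library of 4F at day 21 it was 1, against 924 to 1021 of all genes. For 8F at day 21 against 4F at day 7 the count was 27, and 10 to 27 with a library left out. The median log2 fold change of the members minus that of all genes tested kept its sign throughout. In 4F it was 0.67, and it was 0.84 with no filter, 0.48 with a filter of 5 TPM, 0.57 with median-of-ratios, 0.30 with quantile, 0.74 with the replicate block and 0.56 to 0.74 with a library left out. For 8F against 4F it was -0.12, and it was -0.20 with a pseudocount of 0.1, -0.02 with quantile, -0.19 in both voom fits and -0.15 to -0.07 with a library left out, the latter without replicate 2 of 8F. For 8F at day 21 against day 7 it was 0.52, and it was 0.43 with a pseudocount of 0.1, 0.70 with no filter, 0.37 with a filter of 5 TPM, 0.45 with median-of-ratios, 0.32 with quantile and 0.39 to 0.59 with a library left out. Some signs turned. From day 7 to day 21 in 4F, with median-of-ratios, quantile, voom and voom with median-of-ratios library sizes in that order, Mcm4 (0.33) became -0.01, -0.29, -0.20 and -0.01, Rrm1 (0.17) became -0.16, -0.04, -0.37 and -0.18, and Ccne1 (0.19) became -0.15, -0.24, -0.37 and -0.17. Tyms (0.46) was -0.03 with voom. With a library left out Ccne1 ran from -0.02 to 0.40 and Rrm2 (-0.22) from -0.45 to 0.05, and Rrm2 was 0.05 with the replicate block. In 8F against day 7, Mcm4 (0.46) was -0.10 with quantile. The cause was not tested. With the replicate block 26 members were higher and 1 was lower from day 7 to day 21 in 4F, and 23 were higher and 2 lower in 8F against day 7. With 2 or 3 libraries a group, intervals were wide, and depth left at least 73 reads a member in each library.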
